A study of Mus musculus with 8 samples.

Results

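The 10 genes described here encode transcription factors that give the lung epithelium its identity or divide it into lineages: Nkx2-1, Foxa1, Foxa2, Gata6, Sox2, Sox9, Cebpa, Elf3, Ehf and Grhl2. They were chosen by name, with earlier results of these data known, so counts over them are a description. Probe sets annotated with exactly 1 of these symbols were taken. Each of the 10 had 1 such probe set among the 19938 genes measured. The data are single-colour microarrays of mouse lung epithelial cells at E18.5, an embryonic stage close to birth, that were pulled out of dissociated lungs with magnetic beads against the surface protein Epcam. There were 4 control arrays and 4 arrays of a conditional knockout, labelled Mst1/2 CKO, and the labels call all 8 biological replicates. In the knockout, the Hippo kinases Mst1 and Mst2 were removed by ShhCre, so the deletion follows the activity of the Shh gene in epithelial progenitors as the lung develops. The labels do not state the strain, the floxed alleles, or whether control animals carried Cre. They also do not say whether an array holds 1 embryo or a pool, so the p-values measure the spread between these arrays.

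Nkx2-1 is the homeodomain factor without which the lung bud does not form a lung, and it binds the promoters of surfactant and secretory genes together with the forkhead factors Foxa1 and Foxa2 and the zinc finger factor Gata6. Sox9 marks the distal tips of the branching epithelium and Sox2 the conducting airways, and Cebpa, a basic leucine zipper factor, acts late, when the alveolar cells mature. Elf3 and Ehf belong to the epithelial branch of the Ets family, and Grhl2 is a grainyhead factor that keeps junction genes active. Mst1 and Mst2 lie upstream of the coactivators Yap and Taz, which reach DNA through Tead factors. The comparison therefore asks how the lineage factors stand in the epithelium once the kinases that hold back Yap and Taz are gone.

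Of the 10 factors 4 fell in the knockout cells, 0 rose and 6 did not pass the test. Those that fell were Sox9 (2.45-fold), Cebpa (2.31-fold), Elf3 (1.65-fold) and Foxa1 (1.49-fold). Among all 19938 genes 10.2% were lower and 8.6% higher by the same test, and among the 9969 genes above the median level, where all 10 factors lie, 14.9% were lower and 13.5% higher. The test was limma's moderated comparison of the groups at an adjusted p of 0.05 (Benjamini-Hochberg, 19938 genes). The median difference of the 10 factors was −0.09 on the log2 scale against −0.02 over all genes. Control and knockout values were fully apart for the 4 factors that fell and overlapped for the other 6, while 22.1% of all genes and 32.6% of those above the median level showed no overlap. Values below are log2 expression as deposited. Differences are given as knockout minus control, SE is the standard error of a difference, and each group has n = 4. In RNA from a cell population, fewer cells of a type and less RNA per cell cannot be told apart. The levels of different probe sets are not compared with each other.

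**Figure D1:**
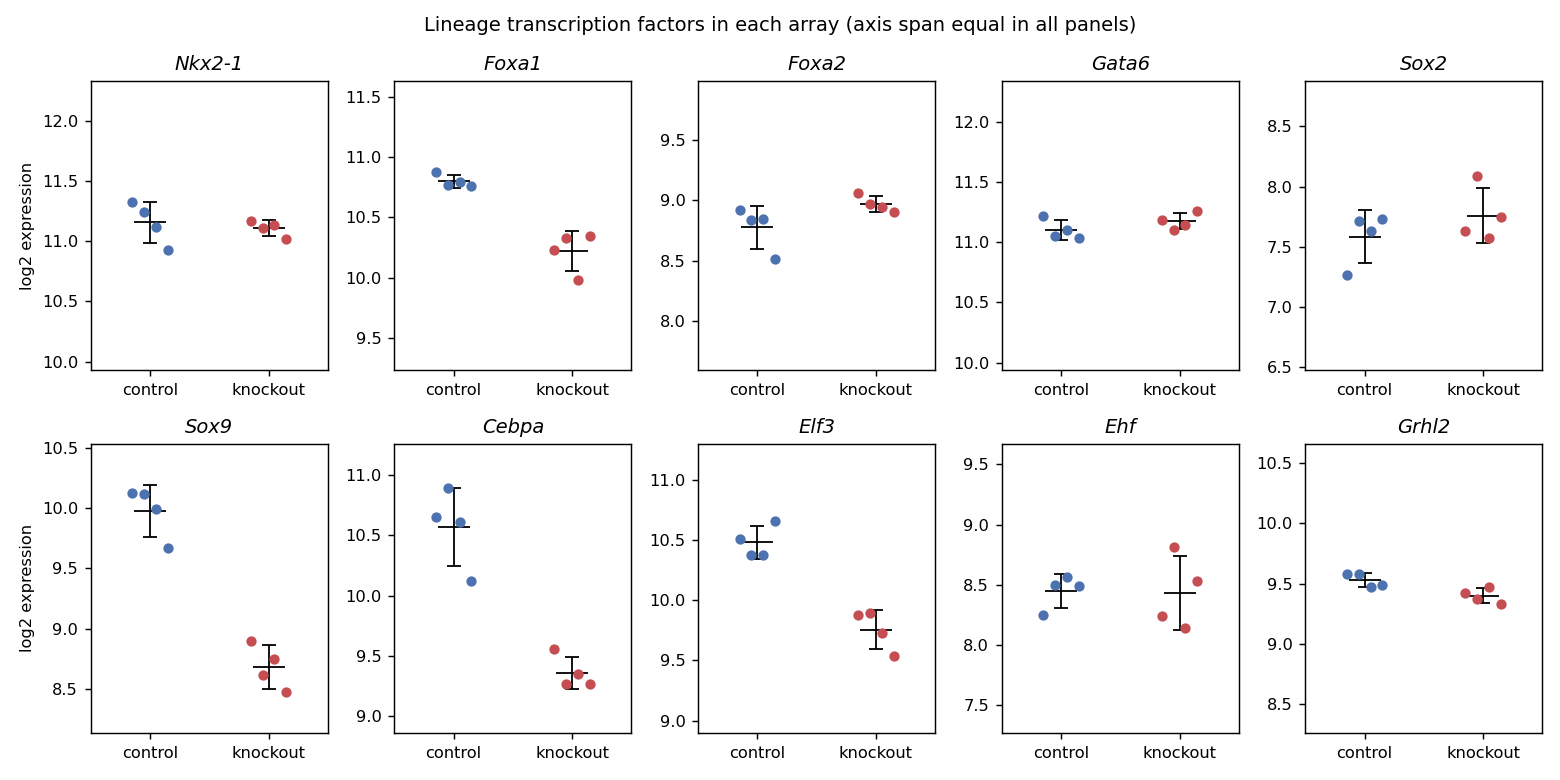
Each panel plots the log2 expression of 1 of the 10 factors, with a point per array, a horizontal bar at the group mean and whiskers of 1 SD (n = 4). All panels span the same number of log2 units. Sox9, Cebpa, Elf3 and Foxa1 have every knockout point below every control point, and in the other 6 panels the groups overlap.

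The RefSeq table of promoters (build GRCm38.p6) holds 8 start sites of 6 of the factors, and those of the falling factors Cebpa, Elf3 and Foxa1 are printed because these genes moved the same way. Each runs 5′ to 3′ on the gene's own strand, from 250 bases before the start of transcription to 50 after it. The first lies at chr7:35119043-35119342 (plus strand), the second at chr1:135258423-135258722 (minus strand) and the third at chr12:57546062-57546361 (minus strand). Capitals mark matches to any of 10 short motifs, searched on both strands.
Cebpa: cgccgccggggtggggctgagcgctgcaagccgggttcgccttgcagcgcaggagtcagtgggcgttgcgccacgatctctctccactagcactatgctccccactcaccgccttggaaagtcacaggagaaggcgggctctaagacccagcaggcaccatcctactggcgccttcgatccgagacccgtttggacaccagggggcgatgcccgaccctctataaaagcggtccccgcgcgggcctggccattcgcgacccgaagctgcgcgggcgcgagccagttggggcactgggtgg
Elf3: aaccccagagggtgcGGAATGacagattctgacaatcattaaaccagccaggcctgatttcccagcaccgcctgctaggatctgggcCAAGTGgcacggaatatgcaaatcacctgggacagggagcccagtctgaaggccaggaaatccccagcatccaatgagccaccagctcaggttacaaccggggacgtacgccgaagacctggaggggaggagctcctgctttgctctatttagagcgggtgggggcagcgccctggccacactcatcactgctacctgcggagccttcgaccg
Foxa1: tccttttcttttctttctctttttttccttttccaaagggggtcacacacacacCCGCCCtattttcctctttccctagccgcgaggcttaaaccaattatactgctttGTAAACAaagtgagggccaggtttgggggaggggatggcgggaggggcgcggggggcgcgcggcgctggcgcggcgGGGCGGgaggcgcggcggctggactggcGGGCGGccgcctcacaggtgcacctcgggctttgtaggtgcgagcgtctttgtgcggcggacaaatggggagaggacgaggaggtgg
The motifs were GGAATG for Tead factors, GTAAACA for forkhead factors, AACAAT for Sox factors, TTGCNNAA for C/EBP factors, CCGGAAG for Ets factors, AGATAA for Gata factors, CAAGTG for Nkx2 factors, AACCNGTT for grainyhead factors, CACGTG for E-box factors and GGGCGG, the GC box. The Tead and Ets motifs share the letters GGAA, and no matches overlapped in the 8 windows. Elf3 held the Tead letters at position −235 from its start, as do 14.7% of the 32851 promoters of the table somewhere in the same window. It also held the Nkx2 letters at −163, which 13.6% of promoters do. In the Foxa1 promoter the forkhead letters, found in 3.65% of promoters, stood at −141, and the GC box, found in 35.7%, matched 3 times. The Cebpa window matched none of the 10 motifs, although its share of G and C was 67.3%, against 62.3% for Foxa1, 59.0% for Elf3 and a median of 52.7% over all promoters. Among the factors that did not pass, Nkx2-1 matched the Sox motif (10.7% of promoters), Sox2 the C/EBP motif (10.8%) and 1 of the 3 windows of Foxa2 the Gata motif (11.2%), and all 5 of these windows held the GC box. The Ets (8.86% of promoters), grainyhead (2.09%) and E-box (7.15%) letters were in none of the 8 windows. These matches describe letters, not binding.

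Sox9, the factor of the distal tips, fell furthest among the 10 genes. Control replicates 1 to 4 read 10.13, 10.12, 9.996 and 9.67, and the knockout replicates, in the same order, 8.90, 8.61, 8.74 and 8.48. The lowest control array, replicate 4, still lay above the highest knockout array, replicate 1. The group means were 9.98 ± 0.21 (SD, n = 4) and 8.68 ± 0.18, a difference of −1.30 (SE 0.12, 95% interval −1.55 to −1.04, adjusted p = 3.93e-05).

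Cebpa, the factor of alveolar maturation and of lipid genes, dropped almost as far. Its control values were 10.65, 10.90, 10.61 and 10.12, the most spread out of the 10 factors in control arrays (SD 0.33), and its knockout values were 9.55, 9.27, 9.35 and 9.27. Control replicate 4 was again the lowest control array and knockout replicate 1 the highest knockout array, with no overlap between the groups. The difference was −1.21 (SE 0.14, 95% interval −1.52 to −0.90, adjusted p = 1.75e-04).

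Elf3, an Ets factor of simple epithelia, read 10.51, 10.38, 10.38 and 10.66 in control and 9.87, 9.89, 9.73 and 9.54 in knockout arrays. Here control replicate 4 was the highest control array, unlike in Sox9 and Cebpa, and knockout replicate 4 was the lowest of all 8. The difference was −0.72 (SE 0.094, 95% interval −0.93 to −0.52, adjusted p = 3.34e-04).

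Foxa1, a forkhead factor that opens closed chromatin in endoderm-derived tissues, read 10.88, 10.77, 10.80 and 10.76 in control arrays, a narrow range, and 10.23, 10.33, 9.98 and 10.34 in knockout arrays. Knockout replicate 3 was the lowest, and the other 3 knockout arrays lay close to each other. The difference was −0.58 (SE 0.082, 95% interval −0.76 to −0.40, adjusted p = 5.89e-04).

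No single array carried these 4 falls. Over 17 other ways of processing or leaving out arrays, each of the 4 kept its direction and stayed past the threshold, with highest adjusted p of 8.87e-04 for Sox9, 0.00597 for Cebpa, 0.0132 for Elf3 and 0.0219 for Foxa1 in limma's test. Of 15 markers of mesenchymal cells 5 rose in the knockout arrays (33.3%, against 8.6% of all genes), 0 fell and 10 did not pass. The mean of the list was 8.39 to 8.86 in control and 8.71 to 9.20 in knockout arrays, so the groups overlapped. Control replicate 4, the lowest control array for Sox9 and Cebpa, had the highest mesenchymal mean among control arrays (8.86). With that mean as a covariate the differences were −1.04 for Sox9, −0.93 for Cebpa, −0.65 for Elf3 and −0.51 for Foxa1. The mesenchymal mean was 0.39 higher in knockout than in control arrays, so the covariate partly follows the group. Calls gained or lost with it, here and below, cannot be read as corrected for mesenchymal cells.

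Nkx2-1, the factor that defines the lung lineage, did not pass. It read 11.33, 11.25, 11.12 and 10.93 in control and 11.17, 11.11, 11.13 and 11.02 in knockout arrays, so all knockout values lay inside the control range. The difference was −0.05 (SE 0.085, 95% interval −0.23 to 0.14, adjusted p = 0.784). A fall as large as that of any of the 4 factors above lies outside this interval.

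Gata6 read 11.22, 11.05, 11.10 and 11.04 in control and 11.19, 11.11, 11.14 and 11.26 in knockout arrays. The groups overlapped, and the difference was 0.07 (SE 0.063, 95% interval −0.07 to 0.21, adjusted p = 0.520). Foxa2, which shares its DNA-binding domain type with Foxa1, read 8.92, 8.83, 8.85 and 8.52 in control and 9.06, 8.97, 8.94 and 8.90 in knockout arrays. Its sign was opposite to that of Foxa1 at 0.19 (SE 0.087, 95% interval −0.0016 to 0.38), but it did not pass over all genes (adjusted p = 0.173). Control replicate 4 stood below the other control arrays. With the mesenchymal mean as a covariate the Foxa2 difference was 0.38 and passed (adjusted p = 0.0330), the only call gained by any of the 6 factors over the 17 alternatives.

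Sox2, the airway factor, read 7.26, 7.71, 7.63 and 7.73 in control and 7.63, 8.09, 7.58 and 7.75 in knockout arrays. The highest value was that of knockout replicate 2 and the lowest that of control replicate 1, and the remaining 6 arrays lay together. The difference was 0.17 (SE 0.13, 95% interval −0.11 to 0.46, adjusted p = 0.433). Its mean was close to the median gene of the array (7.59), and whether the probe set was near its background is not known. Ehf, the Ets relative of Elf3, read 8.25, 8.50, 8.57 and 8.50 in control and 8.24, 8.82, 8.14 and 8.53 in knockout arrays, again with knockout replicate 2 on top. The difference was −0.02 (SE 0.14, 95% interval −0.32 to 0.28, adjusted p = 0.950).

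Grhl2, the grainyhead factor, varied least between arrays of a group apart from Foxa1 in control arrays. It read 9.58, 9.58, 9.47 and 9.49 in control and 9.42, 9.37, 9.47 and 9.33 in knockout arrays, and the overlap came from knockout replicate 3. The difference of −0.13 (SE 0.058, 95% interval −0.26 to −0.0039) had an unadjusted p of 0.0445 and did not pass over all genes (adjusted p = 0.156, limma).

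**Figure D2:**
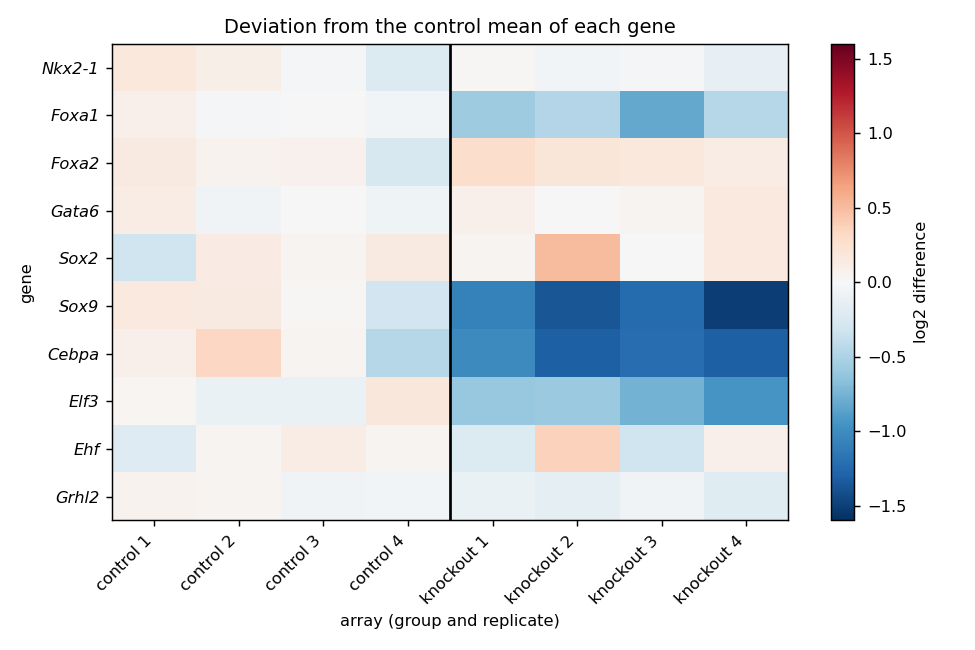
Colour gives each array's log2 difference from the control mean of the same gene, with the 10 factors in rows and the 8 arrays in columns, control to the left of the line. Sox9 and Cebpa reach the deepest values in knockout replicates 2 and 4 (−1.37 and −1.502 for Sox9, −1.30 in both for Cebpa), and knockout replicate 1 is nearest to the control level in both (−1.08 and −1.02).

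Within the knockout group the falling factors did not keep 1 order of arrays. Relative to the control mean, Sox9 lay between −1.502 (replicate 4) and −1.08 (replicate 1), and Cebpa between −1.30 (replicates 2 and 4) and −1.02 (replicate 1). Elf3 was lowest in replicate 4 (−0.94) and highest in replicate 2 (−0.59). Foxa1 was lowest in replicate 3 (−0.82) and highest in replicate 4 (−0.46), the array in which Sox9 and Elf3 were lowest.

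To set the changes of 2 factors side by side without comparing levels, the difference of their log2 values was taken within each array. This was done for 4 pairs, each of a factor that fell and one that did not pass, so the values restate the calls above and are given as a description, with no test. Foxa1 minus Foxa2 averaged 2.02 ± 0.15 (SD, n = 4) over control arrays and 1.25 ± 0.18 over knockout arrays, so it changed by −0.77. Elf3 minus Ehf went from 2.03 ± 0.22 to 1.32 ± 0.33, a change of −0.71. In both pairs the member named first lost ground in all 4 knockout arrays, since no knockout value reached the lowest control value (1.93 and 1.81).

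In the other pairs the factor that fell is named second, so the sign of the change is reversed by the order of subtraction. Sox2 minus Sox9 went from −2.39 ± 0.38 (SD, n = 4) to −0.92 ± 0.35, a change of 1.47. Nkx2-1 minus Cebpa went from 0.59 ± 0.20 to 1.75 ± 0.10, a change of 1.16. None of the 4 pairs overlapped between the groups. The pairs were formed with the falls of Sox9 and Elf3 already known.

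**Figure D3:**
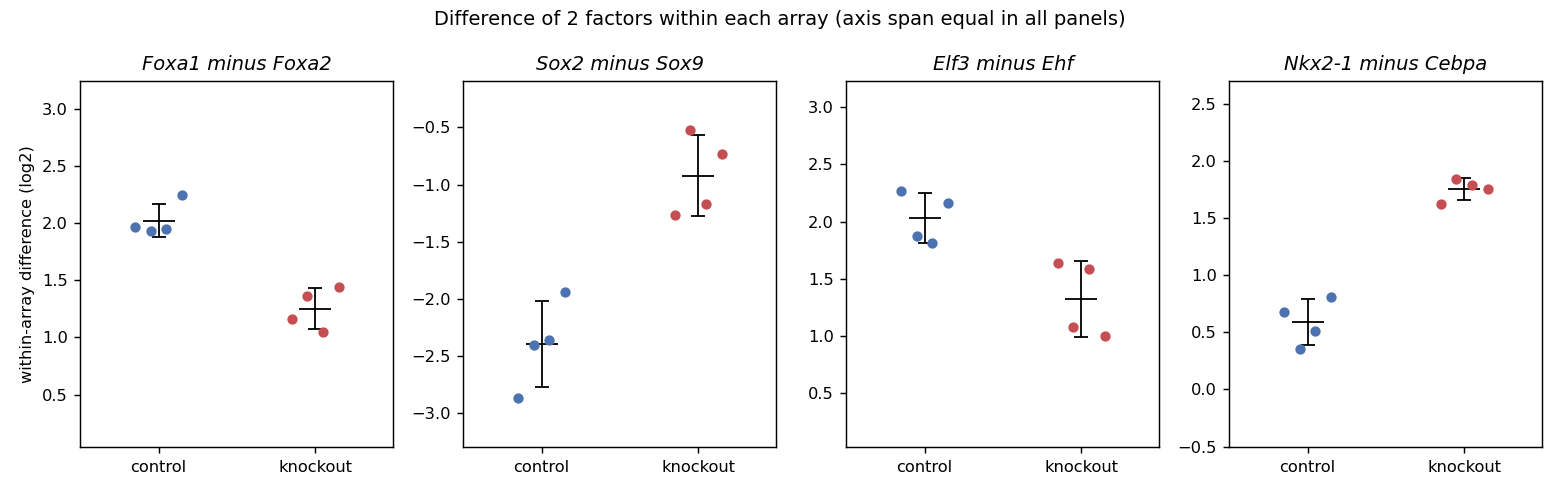
Each panel plots the log2 value of the first factor minus that of the second in the same array, with a point per array, a bar at the group mean and whiskers of 1 SD (n = 4). The groups are apart in all 4 panels. Knockout values lie lower for Foxa1 minus Foxa2 and Elf3 minus Ehf, where the falling factor is named first. They lie higher for Sox2 minus Sox9 and Nkx2-1 minus Cebpa, where it is named second.

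The wider families of the 10 factors were described from a list of 28 relatives. Of these 3 fell, 2 rose and 23 did not pass, and the median difference was 0.00. As shares, 10.7% fell and 7.14% rose, close to the 10.2% and 8.6% of all genes, so the count does not set the relatives apart. The 3 that fell belong to the families of Elf3, Grhl2 and Cebpa. Elf5, an Ets factor of the distal lung tip, read 10.43 to 10.96 in control and 8.66 to 9.32 in knockout arrays, a 3.26-fold fall (−1.70, SE 0.14, adjusted p = 2.24e-05) that is larger than that of any of the 10 factors. Tfcp2l1, a grainyhead-like factor known from ducts and stem cells, read 10.32 to 10.63 in control and 8.73 to 9.27 in knockout arrays (−1.51, SE 0.11, adjusted p = 1.30e-05). Cebpd, a C/EBP factor of acute and glucocorticoid responses, read 8.41 to 8.71 and 7.77 to 7.92 (−0.67, SE 0.074, adjusted p = 1.24e-04).

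The 2 relatives that rose were Grhl3 and Elf4. Grhl3, the grainyhead factor of the epidermal barrier, read 7.13 to 7.36 in control and 8.01 to 8.13 in knockout arrays (0.80, SE 0.066, adjusted p = 2.24e-05), while Grhl2 did not pass and Grhl1 differed by 0.13 (SE 0.12, adjusted p = 0.552). Elf4, an Ets factor best known from lymphocytes, read 8.70 to 8.97 and 9.37 to 9.75 (0.67, SE 0.096, adjusted p = 6.59e-04). Of the leukocyte list 1 of 12 markers rose (Itgam), 1 fell (Lyz1) and the list mean was 9.15 to 10.11 in control and 9.50 to 9.68 in knockout arrays. That mean includes Lyz1, whose difference of −1.92 (SE 0.29) was by far the largest of the list and lowers the knockout means. The part of leukocytes in the value of Elf4 was not tested. All 5 relatives kept their calls over the 17 alternatives. The Elf4 difference was 0.368 with its 2 probe sets averaged and 0.508 with the mesenchymal mean as a covariate (adjusted p = 0.026).

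In the Ets group of Elf3, Ehf, Elf1, Elf2, Elf4, Elf5 and Spdef, Elf3 and Elf5 fell and Elf4 rose. Elf1 lay lower in all knockout arrays without overlap (−0.19, SE 0.062) but did not pass (adjusted p = 0.0602). No relative passed among the Nkx2, Gata and Sox genes listed, where differences lay between −0.10 (Nkx2-9) and 0.20 (Gata2), and Foxa3 did not pass either (−0.16, SE 0.063, adjusted p = 0.107). Many of these relatives are known from other tissues, and their probe sets may sit at background, which no value here can show.

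**Figure D4:**
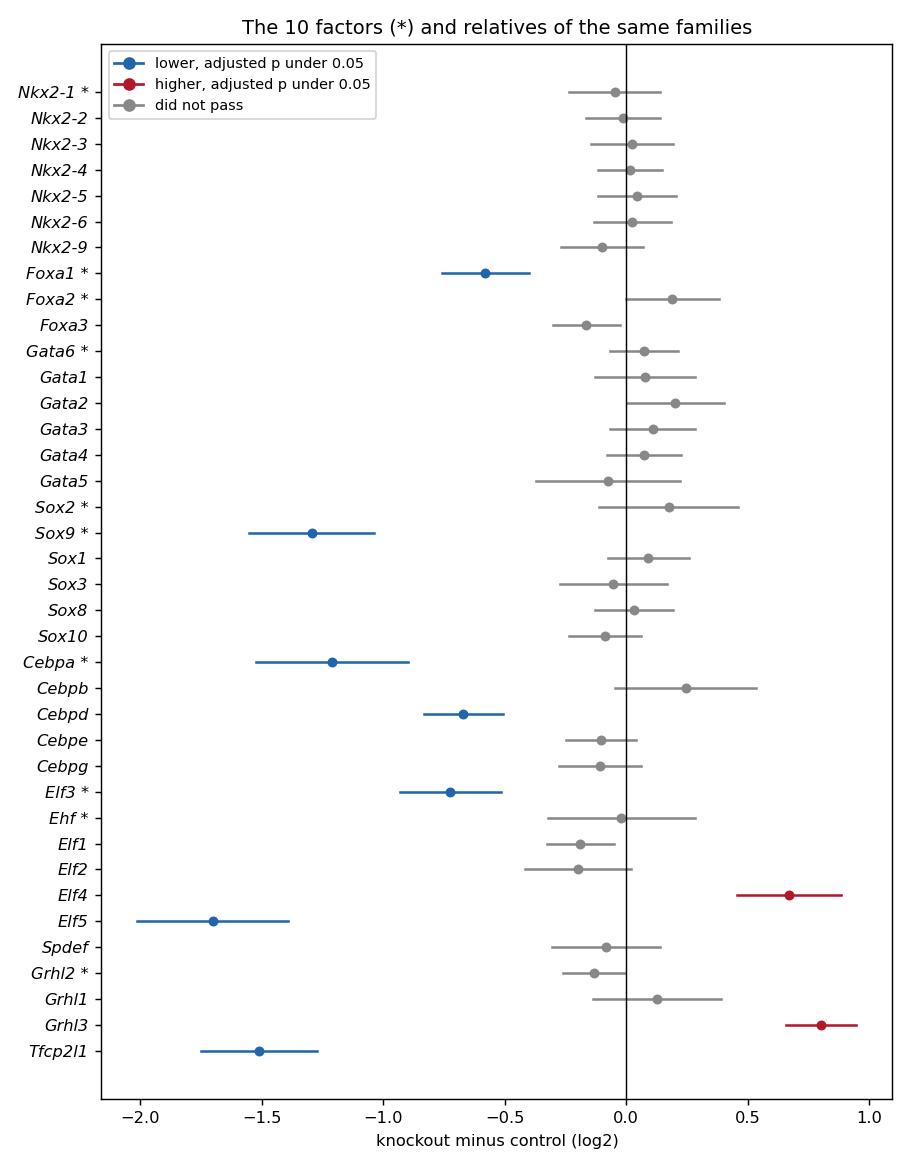
Points give the knockout minus control difference on the log2 scale and lines the 95% interval from limma (n = 4 per group) for the 10 factors, marked with an asterisk, and 28 relatives, ordered by family. Blue marks lower genes, red higher genes and grey those that missed the threshold. Elf5 and Tfcp2l1 lie furthest to the left and Grhl3 furthest to the right.

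Other transcription regulators known from lung development were followed in a list of 43, of which 41 were measured. Of these 14 fell, 3 rose and 24 did not pass, with a median difference of −0.08. As shares, 34.1% fell and 7.32% rose, against 10.2% and 8.6% of all genes. Among genes above the median level 14.9% fell and 13.5% rose. The list was drawn up with earlier results of these data known, so its shares are a description. Nfia, a nuclear factor I protein, read 10.66 to 10.81 in control and 10.21 to 10.37 in knockout arrays (−0.44, SE 0.059, adjusted p = 4.18e-04), whereas its relative Nfib differed by 0.03 (SE 0.054, adjusted p = 0.774). Foxp1, a forkhead repressor of the distal epithelium, read 10.62 to 10.82 and 10.15 to 10.34 (−0.47, SE 0.066, adjusted p = 5.59e-04), and its relatives Foxp4 (−0.28, SE 0.10, adjusted p = 0.0934) and Foxp2 (−0.08, SE 0.085, adjusted p = 0.603) did not pass. Among the 6 with the smallest p were also Etv5, a target of Fgf signalling at the distal tip (−1.35, SE 0.14), and Srebf1, which turns on lipid synthesis (−0.71, SE 0.090). Etv4, a relative of Etv5, had the opposite sign and did not pass (0.24, SE 0.084, adjusted p = 0.0698). It was called higher with median centring, with quantile normalization and without knockout replicate 1. Mycn, a Myc-family factor of dividing tip progenitors (0.67, SE 0.064), and Hopx, a homeodomain-only protein of alveolar type 1 cells (0.59, SE 0.066), rose. Nfib, Foxp2, Foxp4 and Etv4 are given as relatives of genes that passed.

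All 4 Iroquois homeobox genes of that list fell, and they were singled out after their values were seen. Irx5 differed by −0.65 (SE 0.11, adjusted p = 0.00168), Irx3 by −0.52 (SE 0.10, adjusted p = 0.00455), Irx1 by −0.44 (SE 0.10, adjusted p = 0.0113) and Irx2 by −0.25 (SE 0.074, adjusted p = 0.0405). Iroquois genes lie in 2 genomic clusters, so these are not 4 separate observations. With the mesenchymal mean as a covariate all 4 stayed negative, at −0.425 for Irx5, −0.380 for Irx3, −0.276 for Irx1 and −0.217 for Irx2, and none passed (adjusted p from 0.0566 to 0.297), and Irx2 lost its call under 9 of the 17 alternatives. In all 4 genes control replicate 4, the control array with the highest mesenchymal mean, was the lowest control array. With that covariate the list had 5 members that fell and 2 that rose. Calls over all genes also dropped with it, from 2031 lower and 1715 higher to 943 and 754, so the losses are not particular to this list.

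Factors tied to 1 airway lineage were seen singly. Foxj1, the master factor of multiciliated cells, differed by −0.30 (SE 0.090, adjusted p = 0.0421), and it lost its call under 10 of the 17 alternatives, 7 of which left out 1 array each. Trp63, the factor of basal cells, differed by 0.01 (SE 0.054, adjusted p = 0.903). Klf5 (0.04, SE 0.066, adjusted p = 0.762) and the glucocorticoid receptor gene Nr3c1 (0.09, SE 0.071, adjusted p = 0.464) stayed short of the threshold. Meis1, a homeodomain factor of the lung mesenchyme, was the third that rose (0.44, SE 0.14, adjusted p = 0.0478), and its difference was 0.04 with the mesenchymal mean as a covariate (adjusted p = 0.833). Meis1 lost its call under 9 of the 17 alternatives. The genes of this paragraph, and elsewhere Grhl1, Elf1, Foxa3, Wnt7b, Aqp5, Sftpc, Scgb1a1, Scgb3a1, Scgb3a2, Cldn18 and Cdh1, were picked out with their values in view.

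**Figure D5:**
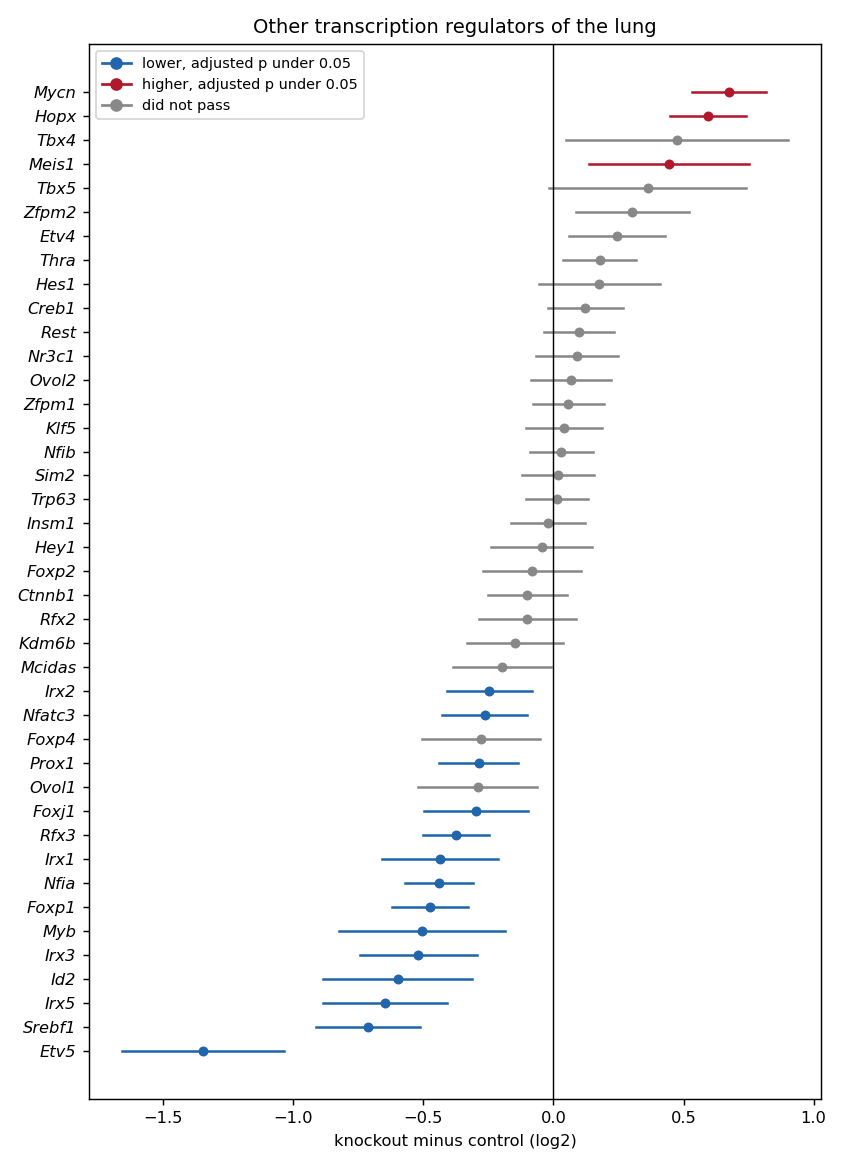
Points give the knockout minus control difference on the log2 scale and lines the 95% interval from limma (n = 4 per group) for the 41 measured regulators, sorted by size. Etv5 lies furthest to the left at −1.35 and Mycn furthest to the right at 0.67, with 14 lower genes in blue, 3 higher genes in red and 24 genes in grey that missed the threshold.

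Genes that textbooks give as targets of these factors, most of them surfactant, lamellar body and secretory genes, were mostly lower. Among 18 such genes 12 were lower, 2 were higher and 4 did not pass, and the list had a median difference of −0.71. As shares, 66.7% were lower and 11.1% higher, against 10.2% and 8.6% of all genes. Among genes above the median level 14.9% were lower and 13.5% higher. This list too was drawn up with earlier results of these data known, so its shares are a description. Those with the smallest p were Abca3, the lipid transporter of lamellar bodies (−1.05, SE 0.090), Lyz2, a lysozyme of type 2 cells and macrophages (−0.93, SE 0.086), and Sftpb, surfactant protein B (−0.73, SE 0.075). Wnt7b, a ligand made by the distal epithelium that Nkx2-1 and Gata6 are known to activate, rose (0.59, SE 0.083, adjusted p = 5.56e-04). The other that rose, Aqp5, a water channel of type 1 cells (0.31, SE 0.090, adjusted p = 0.0344), lost its call under 7 of the 17 alternatives. The 4 that did not pass were Sftpc, Scgb1a1, Cldn18 and Cdh1. The surfactant gene Sftpc differed by −0.05 (SE 0.051, adjusted p = 0.553) and the secretory gene Scgb1a1 by −0.46 (SE 0.18, adjusted p = 0.114). Sftpc read 13.346 to 13.436 in control and 13.3 to 13.349 in knockout arrays, where the highest value of an array was 13.685 to 13.95. Whether its probe set was at the upper limit of the signal, where a fall would be hidden, was not tested. Of the lower secretory genes, Scgb3a1 kept its call under 9 of the 17 alternatives. Scgb3a2 kept it under all 17, although its groups overlapped.

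Junction and keratin genes are the group that Grhl2 and the epithelial Ets factors are known for. Among 20 such genes 2 were higher, 1 was lower and 17 did not pass, at a median difference of 0.03. That is 10% higher and 5% lower, and the median size of the differences (0.139) was near that of all genes above the median level (0.141). Krt19, a keratin of simple epithelia, rose (0.62, SE 0.086, adjusted p = 5.39e-04) and Cldn3, a claudin, fell (−0.49, SE 0.078, adjusted p = 0.00120). Krt8, the other gene that rose (0.27, SE 0.079), lost its call under 9 of the 17 alternatives. Cdh1, the main adhesion molecule of epithelia, differed by −0.0041 (SE 0.053, adjusted p = 0.974), and the mean of the list was 10.79 to 10.90 in control and 10.84 to 10.98 in knockout arrays.

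Some of the 10 factors are also made outside the epithelium, so markers of other cells are given, to be read against the 8.6% of all genes that rose and the 10.2% that fell. Sox9 is a factor of cartilage, and of 12 chondrocyte markers 1 rose (8.33%; Cnmd, 0.34, SE 0.079), 0 fell, and the list mean was 6.83 to 7.02 in control and 6.90 to 7.09 in knockout arrays. Sox2 is also made in glia. Of 7 measured markers of neural crest and glia 0 passed in either direction, and the list mean was 6.74 to 6.85 and 6.79 to 6.88. For that count, limma's unadjusted p was below 0.05 in 1 of the 7, Fabp7 (0.0288). Gata6 is also expressed in mesenchyme, endothelium and mesothelium, and besides the mesenchymal list 4 of 12 endothelial markers (list mean 8.80 to 9.10 in control, 9.10 to 9.30 in knockout arrays) and 3 of 10 mesothelial markers (8.21 to 8.71 and 8.66 to 9.05) rose and 0 of either fell. The 3 mesothelial markers were Msln, Upk1b and Krt19, of which Krt19 is also in the keratin list above, and the other 7, among them Wt1 (0.17, SE 0.12), did not pass. Of 9 neuroendocrine markers 2 fell (22.2%) and 1 rose, and of 12 ciliated cell markers 5 fell (41.7%) and 0 rose. Genes that respond to tissue dissociation were mostly lower, 8 of 11 (72.7%) with 1 that rose. The part of these lists in the values of the 10 factors was not tested, apart from the mesenchymal covariate given above.

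The genes whose pattern over the 8 arrays was most like that of each falling factor were found among 9959 other genes above the median level. Likeness was the root mean square difference of the values after each gene was set to its control mean, so it uses the group difference itself. Sox9 was nearest to Npc1, a cholesterol transporter of the late endosome (0.0629 log2 units; knockout minus control −1.32), and to Rbpjl, a relative of the Notch effector Rbpj (0.0781; −1.27). Cebpa was nearest to Cited2, a coregulator of the CBP and p300 acetyltransferases (0.0907; −1.13), and to Mid1ip1, a regulator of fatty acid synthesis (0.0983; −1.24). Elf3 was nearest to Zdbf2, an imprinted gene (0.0580; −0.72), and to the haem exporter Flvcr1 (0.0818; −0.71). Foxa1 was nearest to the palmitoyltransferase gene Zdhhc1 (0.0526; −0.54) and to D630045J12Rik (0.0813; −0.58). No gene was nearest to more than 1 of the 4 factors, which themselves fell by unequal amounts. That all 8 of these genes fell follows from the measure and is not a separate result.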

How the data were processed

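Total RNA of bead-selected Epcam(+) cells was labelled with biotin by Affymetrix protocols, per the labels. The authors deposited 1 table of 35556 probe sets by 8 arrays. Its values were read as log2 expression from their range (2.895 to 13.95), and the deposited table has near-equal array medians (7.21 to 7.30). For normalization, software and genome build, the sources used here give nothing. If the arrays were scaled to each other, each difference is relative to the whole array. No scaling was applied here in the main comparison. Precision is limited by having 8 arrays.

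Symbols came from the platform annotation in GEO: 21789 probe sets had 1, 1621 several and 12146 none. A gene took its brightest probe set of a single symbol, which left 19938 genes. Groups were compared with limma 3.58.1 (lmFit, eBayes, no covariate) in R 4.3.3, two-sided, Benjamini-Hochberg over all genes, threshold 0.05, after a check on simulated data. Pairs of factors are described without a test in the report, since each joins a called and an uncalled factor. The exact permutation test planned for them was run (p = 0.0286 for each pair, the smallest that 4 against 4 arrays allow) and supports nothing here. Named genes were all 10 factors, the 3 genes with the smallest p of each other list, up to 6 passing relatives and regulators, and the 2 genes most like each called factor. In the marker lists only the genes a result turned on are named. The factors, pairs and lists were chosen with earlier results of these data known. Alternatives were median centring, quantile normalization, averaging probe sets, a filter at the median level, eBayes with trend and robust, array weights, a replicate block, the mesenchymal marker mean as a covariate, leaving out each array, and leaving out knockout replicates 1 and 4 together. Promoter sequences are RefSeq's (GRCm38.p6), and the 10 motifs were chosen after the expression results were seen.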

Additional observations from a re-analysis of the deposited data

Results flagged for a closer look

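In each group of 4 arrays, the highest and lowest values were checked for standing apart by Dixon's test at its 95% level. Of 74 groups tested 4 were flagged, where chance flags about 1 in 20. The within-array difference of Foxa1 and Foxa2 was 2.24 in control replicate 4 and 1.93 to 1.96 in the other control arrays. Elf4 read 9.75 in knockout replicate 4 and 9.37 to 9.42 in the other knockout arrays. The mean of the chondrocyte markers was 7.09 in knockout replicate 4 and 6.90 to 6.93 in the others, and the mean of the leukocyte markers was 9.68 there and 9.50 to 9.52 in the others. The leukocyte mean includes Lyz1, which read 12.38, 11.25, 11.28 and 10.54 in knockout replicates 1 to 4. Whether the flag holds without Lyz1 was not tested. None of the 10 factors was flagged by its own values.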

How the results depend on the processing

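Sox9, Cebpa, Elf3 and Foxa1 fell under all 17 alternatives (4 of 10 factors each time), and the counts of relatives stayed at 2 higher and 3 to 4 lower. With the mesenchymal mean as a covariate 1 factor rose (Foxa2), Nkx2-1 turned to 0.12, 5 other regulators fell, and 1 target and 1 junction gene rose. Over all genes 943 were then lower and 754 higher, against 2031 and 1715 without it. With 1 array left out Nkx2-1 lay between −0.1216 (without control replicate 4) and 0.0107 (without control replicate 1). Ehf turned positive with array weights (0.038) and without knockout replicates 1 and 4 together (0.026, with 1 target that rose), and lay between −0.148 and 0.0783 with 1 array left out, never past the threshold. The count of other regulators that rose was 5 with median centring or quantile normalization and 6 with the replicate block, under which 1 junction gene rose. With 1 array left out it was 2 (without control replicates 1, 2 or 3 or knockout replicates 3 or 4) to 7 (without knockout replicate 1). Targets that rose then numbered 1 to 2 and junction genes that rose 1 to 5 (5 without control replicate 4). The cause was not tested.

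For the pairs, which are a description, the differences with the replicate block were −0.77, 1.47, −0.71 and 1.16 in the order Foxa1 against Foxa2, Sox2 against Sox9, Elf3 against Ehf, Nkx2-1 against Cebpa, as without it. Without knockout replicates 1 and 4 they were −0.82, 1.55, −0.70 and 1.23. Leaving out 1 array gave −0.83 to −0.70, 1.31 to 1.62, −0.81 to −0.60 and 1.09 to 1.24. Over all genes same-numbered deviations correlated at −0.08 to 0.10, and no number correlated best with its own. Such a correlation can miss a link that shows in few genes. Hspa1a read 9.41, 9.22, 10.54 and 10.91 in control replicates 1 to 4. In knockout replicates 1 to 4 it read 9.70, 9.42, 10.66 and 11.05. Whether same-numbered arrays shared a litter or a processing day is not known. The block moved the calls over all genes from 1715 higher and 2031 lower to 1595 and 1899.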
